A study of Mus musculus with 6 samples.

Results

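Genes of glycolysis and of the response to low oxygen were followed across 3 groups of sorted mouse mesodermal cells. The set was 36 genes of glucose uptake, glycolysis, pyruvate handling and the hypoxia response, and its members were all probe sets whose single annotated gene symbol was one of these 36. This gave 76 probe sets for 34 genes, among 18194 genes with a probe set and 12923 genes bright enough to be tested. Gpi1 and Eno1 had no such probe set and are not analysed here. All 34 genes passed the filter on dim values, although Car9 did so on only 3 of the 6 arrays. For each gene the probe set with the highest mean was used. Of 20 genes with several usable probe sets, these had 1 sign for 15 between the WT gates, 16 between SclKO and WT Scl+ and 13 between SclKO and WT Scl-.

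The cells came from mouse embryonic stem (ES) cells grown for 2 days in a pre-differentiation medium and then for 4 days as embryoid bodies, floating aggregates in which mesoderm forms. Cells with Flk1 (gene Kdr), a receptor of early mesoderm and vessels, were sorted, and their total RNA was hybridised to 6 Affymetrix arrays. Both WT groups came from 1 reporter line made in R1 ES cells, of strain (129/Sv x 129/Sv-CP)F1, that carries human CD4 knocked into the locus of Scl (gene Tal1), a transcription factor needed for blood formation. Its Flk1+ cells were divided by human CD4 into WT Scl+ (n = 2) and WT Scl- (n = 2). SclKO (n = 2) was the Flk1+ fraction of a line without functional Scl derived from the J1 ES line (129S4/SvJae), sorted on Flk1 with no CD4 gate. Knockout, ES line and gate cannot be told apart in any comparison with SclKO. All 3 groups shared the culture in serum, ascorbic acid and monothioglycerol, and the labels name no oxygen tension. Whether replicates were separate cultures is not stated, and the p-values then reflect no more than array-to-array spread, which may be technical.

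Glycolysis splits glucose into pyruvate and yields ATP without oxygen, and lactate dehydrogenase then turns pyruvate into lactate. The hypoxia-inducible factors HIF-1α (Hif1a) and HIF-2α (Epas1) are made continuously and destroyed when oxygen is present, because prolyl hydroxylases (Egln1, Egln3) mark them for the ubiquitin ligase subunit Vhl. When oxygen is scarce they persist and activate glucose transporters, glycolytic enzymes and genes such as Bnip3 and Car9. Pluripotent cells are known for high glycolysis, and endothelial cells also depend on it. In bulk RNA, fewer cells of a type and less RNA per cell cannot be told apart.

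Levels are natural logs of the deposited values, and differences between groups are in log units. The base of the deposited scale is not stated: 1 log unit is 2-fold if the natural log is an RMA log2 value, or 2.72-fold if the deposited values are linear, and folds are given in that order. The limit for dim values, the 40th percentile of each array, lay between 4.54 and 4.59. WT Scl+ replicate 2 stood apart from the other 5 arrays, at -51.3 on the first principal component against -9.9 to 26 for the others, and results that rest on it are given without it as well. Kdr, the sort marker, was between 10.83 and 11.35 on the 6 arrays, and Tal1 was at 8.65 and 8.78 in WT Scl+, 6.52 and 7.97 in WT Scl-, and 5.71 and 6.14 in SclKO; whether its probe set lies within the deleted sequence was not checked. Marker lists of other cells differed between the groups. The mean level of 5 mesodermal markers was 7.62 to 8.35 in WT Scl+, 8.84 to 9.58 in WT Scl- and 8.82 to 9.42 in SclKO. The mean level of 8 endothelial markers was 6.87 to 7.41 in WT Scl+, 4.7 to 6.37 in WT Scl- and 5.14 to 5.91 in SclKO, with Emcn under the limit on every array. That of 5 primitive erythroid markers was 5.63 to 6.15, 4.27 to 4.81 and 4.29 to 4.4, with Hbb-y under the limit on every array. That of 7 primitive streak markers was 6.57 to 7.65, 8.41 to 8.73 and 9 to 9.03. That of 7 pluripotency markers was 6.33 to 7.83, 6.95 to 7.41 and 7.85 to 7.9. That of 8 genes of the response to cell dissociation was 7.5 to 7.8, 7.56 to 7.65 and 7.56 to 7.65. At an unadjusted p under 0.05, WT Scl+ was above WT Scl- for 6 of 7 tested endothelial and 4 of 4 erythroid markers, and below it for 7 of 7 streak markers; between SclKO and WT Scl- these counts were 0, 0 and 1, the last with SclKO higher. SclKO was above WT Scl- for all 6 tested pluripotency markers (median 0.94 log units), with Pou5f1 and Dppa5a past that threshold, and for 4 of 5 tested endoderm markers, with Apoa1 and Foxa2 past it. The mean level of 7 endoderm markers was 5.29 to 5.4 in WT Scl+, 4.95 to 5.05 in WT Scl- and 5.22 to 5.3 in SclKO. The part of cell makeup in the results below was not tested.

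SclKO cells had the lowest levels of the glucose transporter Slc2a3, the phosphofructokinase Pfkp, the glycolytic activator Pfkfb3 and the oxygen sensor Egln3, below every WT array of either gate on the probe sets used. Against WT Scl- these differences were -0.67, -0.69, -1.08 and -0.58 log units, with standard errors of 0.15 to 0.28. Hk2, a hexokinase, lay above every WT array in SclKO, by 0.18 log units against WT Scl- and 0.45 against WT Scl+ (SE 0.15 each). The share of all genes that lie below or above every WT array in SclKO is not given here. The core enzymes Gapdh and Pgam1 differed by no more than 0.09 log units in size. Tpi1, another core enzyme, differed by -0.22 in both SclKO comparisons. Between the WT gates, P4ha2 was the member with the smallest p, lower in WT Scl+ on both arrays. No member passed limma's test at an adjusted p under 0.05 in any of the 3 comparisons, with lowest adjusted p values of 0.399 for WT Scl+ against WT Scl-, 0.151 for SclKO against WT Scl+ and 0.797 for SclKO against WT Scl-.

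Within the WT line, reporter-positive cells were set beside reporter-negative ones to ask how cells that had switched on Scl differ. Limma called 0 of the 34 members and 0% of all genes tested. At an unadjusted p under 0.05, 1 member was higher (Hk1, against 5.40% of all genes) and 1 lower (P4ha2, against 3.74%), both 2.94% of the members and under the share over all genes. With each array left out in turn, a count added after seeing the data, 0 to 1 members were higher and 1 to 7 lower, the 7 without WT Scl+ replicate 1, where 16.2% of all genes were lower, and 4 without WT Scl- replicate 1 against 1.56%. P4ha2 was lower in WT Scl+ with any 1 array left out, although leaving out a SclKO array cannot change this difference. The difference was negative for 26 of the 34 members and for 6960 of the 12923 genes tested. The median over the members was -0.15 log units, against -0.02 over all genes tested. Without WT Scl- replicate 2 that median was -0.03, and without WT Scl+ replicate 2 it was -0.08.

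For SclKO beside the reporter-positive WT cells, limma called 0 of the 34 members, against 0.00774% of all genes tested. At an unadjusted p under 0.05, 5 members (14.7%) were lower, namely Hk1, Slc2a3, Pfkfb3, Pfkp and Egln3, against 6.80% of all genes, and 1 member, Hk2, was higher, against 7.16%. Fewer of these 5 passed that threshold with any WT Scl+ or SclKO array left out. In the order named, their differences were -1.47, -0.92, -0.56, -0.51 and -0.34 without WT Scl+ replicate 2. Without WT Scl+ replicate 1 they were -0.93, -0.98, -1.27, -0.39 and -0.43. For Hk2 the difference was 0.58 without WT Scl+ replicate 1 and 0.32 without WT Scl+ replicate 2. Slc2a3 was lower in SclKO with any 1 array left out, although leaving out a WT Scl- array cannot change this difference. The median difference was -0.1 log units, against 0.04 over all genes tested.

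For SclKO beside the reporter-negative WT cells, limma again called 0 of the 34 members, against 0.00774% of all genes. At an unadjusted p under 0.05, 6 members (17.6%) were lower, namely P4ha2, Pfkp, Pfkfb3, Egln3, Slc2a3 and Aldoc, against 2.38% of all genes, and 0 were higher, against 3.14%. Without WT Scl- replicate 2 only Pfkfb3 and P4ha2 were lower at that threshold (against 0.998% of all genes), and without WT Scl- replicate 1 there were 10 (against 2.36%). With 1 array left out, the median difference of the members ranged from -0.28 to -0.12 log units. Pfkfb3 and P4ha2 were lower in SclKO with any 1 array left out, although leaving out a WT Scl+ array cannot change these differences. The difference was negative for 27 of the 34 members and for 5940 of the 12923 genes tested. The median over the members was -0.18 log units, against 0.02 over all genes tested. Both comparisons share the SclKO arrays, so a gene that is low there counts in both.

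**Figure D1:**
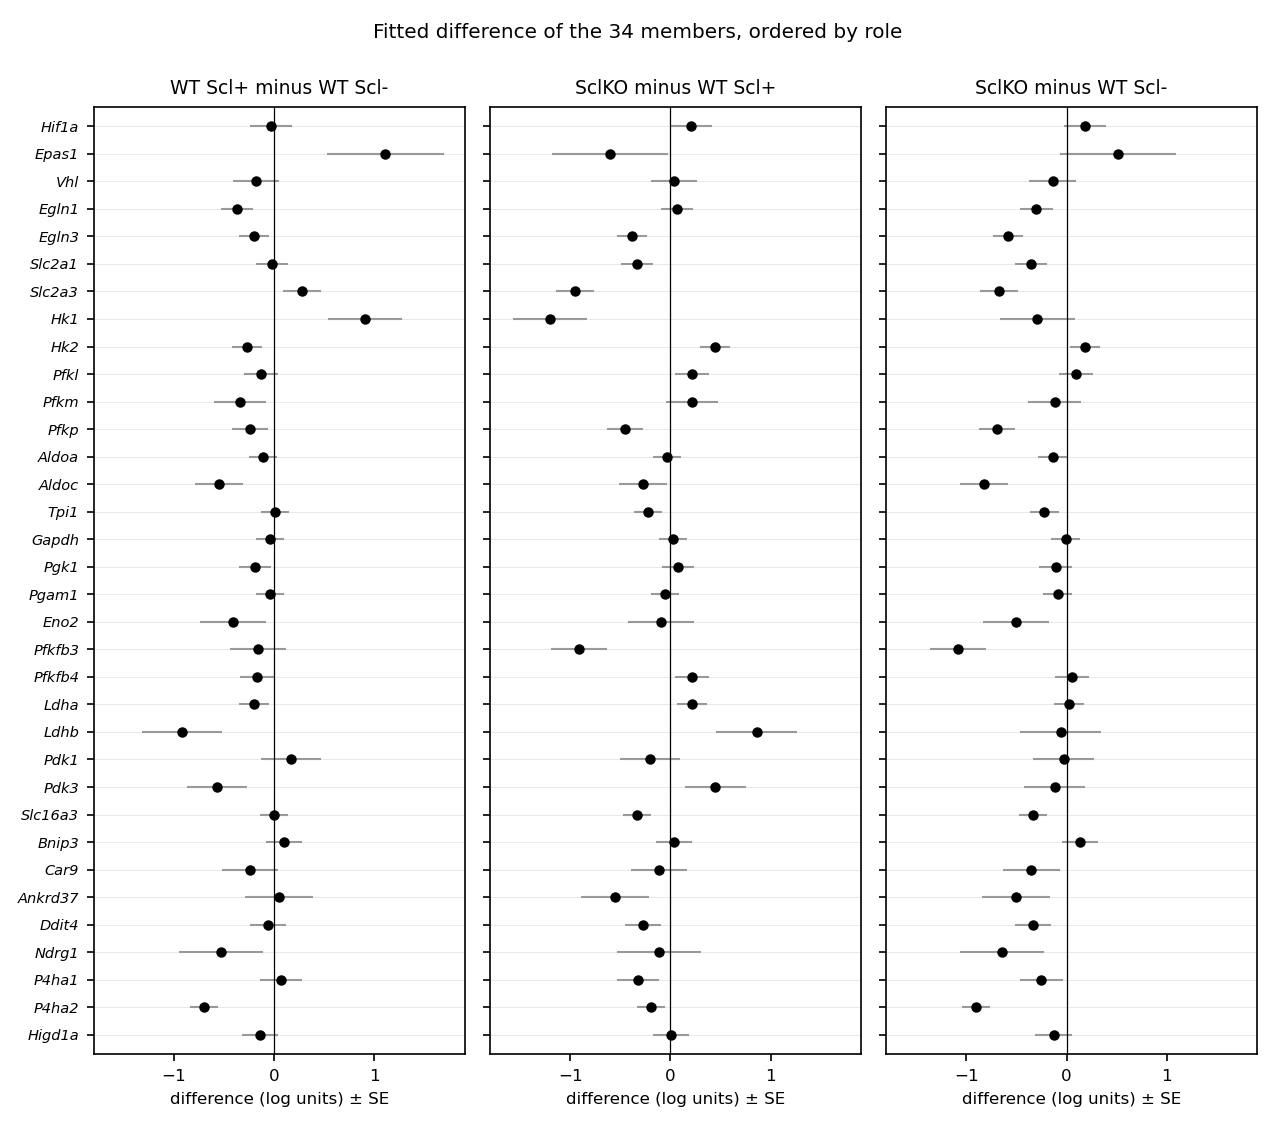
Fitted difference of each of the 34 members (points, log units) with its standard error (bars) in the 3 comparisons, ordered from regulators at the top through glycolysis to other hypoxia response genes. Hk1, Slc2a3 and Pfkfb3 lie farthest to the left in SclKO minus WT Scl+ (-1.20, -0.95 and -0.91), and Pfkfb3, P4ha2 and Aldoc in SclKO minus WT Scl- (-1.08, -0.90 and -0.82), while Gapdh and Pgam1 stay near 0 in every panel.

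Among the regulators, Hif1a, the oxygen-labile HIF-1α subunit, was at 9.7 and 9.34 in WT Scl+, 9.65 and 9.45 in WT Scl-, and 9.92 and 9.54 in SclKO. The groups overlapped in every comparison. The difference was -0.03 log units (SE 0.21, 95% confidence interval -0.54 to 0.48) between the WT gates, 0.21 (-0.3 to 0.72) for SclKO against WT Scl+ and 0.18 (-0.33 to 0.69) for SclKO against WT Scl-. Of its other probe sets, 1 was at 6.48 and 6 in WT Scl+, 6.04 and 6.61 in WT Scl-, and 5.53 and 5.69 in SclKO. On that probe set SclKO lay below all WT arrays, by -0.72 log units against WT Scl- (SE 0.26) and -0.63 against WT Scl+, while the groups overlapped on the other probe sets.

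Epas1, the HIF-2α subunit that is prominent in endothelium, was at 7.08 and 8.92 in WT Scl+, 6.79 and 6.99 in WT Scl-, and 7.06 and 7.74 in SclKO. The high value came from WT Scl+ replicate 2 alone. The difference between the WT gates was 1.11 log units (SE 0.58, limma adjusted p = 0.641). Without that array it was 0.19. SclKO differed from WT Scl+ by -0.6 (SE 0.58), and by 0.32 without that array, so the sign turned. A second probe set lay under the dim limit on all 6 arrays.

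Egln3, an oxygen-dependent prolyl hydroxylase that HIF itself induces, was at 9.92 and 10.02 in WT Scl+, 10.06 and 10.27 in WT Scl-, and 9.54 and 9.63 in SclKO. Both SclKO arrays lay below all 4 WT arrays. SclKO differed from WT Scl- by -0.58 log units (SE 0.15, 1.5-fold or 1.79-fold, limma adjusted p = 0.884) and from WT Scl+ by -0.38 (SE 0.15, limma adjusted p = 0.348; -0.34 without WT Scl+ replicate 2). On a second probe set, at -0.27 and -0.36, SclKO (9 and 9.57) overlapped both WT groups. Egln1, the main hydroxylase of HIF-1α, differed by -0.37 (SE 0.16) between WT Scl+ and WT Scl-, where its groups did not overlap, and by -0.3 (SE 0.16; -0.19 without WT Scl- replicate 2) between SclKO and WT Scl-. A second Egln1 probe set gave -0.18 and 0.1, and there SclKO (9.74 and 9.79) lay above WT Scl- (9.7 and 9.63). Between SclKO and WT Scl+, Egln1 differed by 0.07 (SE 0.16) on the probe set used. On the second it differed by 0.28, with SclKO above WT Scl+ (9.53 and 9.43). Vhl, which recognises hydroxylated HIF, differed by at most 0.18 log units in size in the 3 comparisons, with standard errors of 0.23.

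Glucose enters through the transporters Slc2a1 (GLUT1) and Slc2a3 (GLUT3). Slc2a3, a high-affinity transporter, was at 12.65 and 12.72 in WT Scl+, 12.19 and 12.63 in WT Scl-, and 11.81 and 11.67 in SclKO. WT Scl+ lay highest and SclKO lowest, with no overlap between any groups on the probe set used. The level in SclKO was 1.93-fold or 2.58-fold lower than in WT Scl+, a difference of -0.95 log units (SE 0.19; adjusted p = 0.151 in limma) that was -0.92 without WT Scl+ replicate 2. SclKO differed from WT Scl- by -0.67 (SE 0.19, limma adjusted p = 0.884), and by -0.45 without WT Scl- replicate 2. The WT gates differed by 0.28 (SE 0.19), and by 0.05 without WT Scl- replicate 1. All 4 Slc2a3 probe sets had the same signs, with differences of -1.69 to -0.95 log units between SclKO and WT Scl+ and of 0.28 to 0.64 between the WT gates. On 1 of them WT Scl+ (9.98 and 10.53) overlapped WT Scl- (9.3 and 10.26).

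Slc2a1, the basal transporter and a HIF target, was at 12.49 and 12.63 in WT Scl+, 12.45 and 12.7 in WT Scl-, and 12.28 and 12.18 in SclKO. The SclKO arrays lay below all WT arrays, which overlapped with each other. The differences were -0.33 (SE 0.16, limma adjusted p = 0.425) against WT Scl+ and -0.35 (SE 0.16, limma adjusted p = 0.897) against WT Scl-, and -0.02 (SE 0.16) between the WT gates. Its 3 probe sets gave -0.39 to -0.3 and -0.42 to -0.33 in the SclKO comparisons.

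Hexokinases trap glucose as its phosphate. Hk1, the constitutive form, was at 6.62 and 6.09 in WT Scl+, 4.91 and 5.98 in WT Scl-, and 5.06 and 5.25 in SclKO. WT Scl+ lay above both other groups, and the WT Scl- arrays lay far apart. The difference was 0.91 log units (SE 0.37, limma adjusted p = 0.542) between the WT gates, and 0.37 without WT Scl- replicate 1. SclKO differed from WT Scl+ by -1.2 (SE 0.37, 2.3-fold or 3.32-fold, limma adjusted p = 0.257), and by -1.47 without WT Scl+ replicate 2. A second Hk1 probe set gave 0.5 and -0.79. Hk2, the inducible form, went the other way, with SclKO above WT Scl+ by 0.45 log units (SE 0.15, limma adjusted p = 0.292; 0.32 without WT Scl+ replicate 2) and above WT Scl- by 0.18 (SE 0.15). Its SclKO arrays (10.11 and 10.06) lay above all WT arrays (9.51 to 9.91).

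Phosphofructokinase, which commits glucose to glycolysis, has isoforms from 3 genes. Pfkp, the platelet form, was at 10 and 9.88 in WT Scl+, 10 and 10.37 in WT Scl-, and 9.52 and 9.46 in SclKO. Both SclKO arrays were below all WT arrays. SclKO differed from WT Scl+ by -0.45 log units (SE 0.18, limma adjusted p = 0.344) and from WT Scl- by -0.69 (SE 0.18, 1.61-fold or 2-fold, limma adjusted p = 0.884). All 3 probe sets were negative in both, at -0.75 to -0.38 and -0.69 to -0.62. The liver form Pfkl and the muscle form Pfkm each differed by 0.22 between SclKO and WT Scl+ (SE 0.17 and 0.26), and by 0.09 and -0.12 between SclKO and WT Scl-. Without WT Scl+ replicate 2 the first values were 0.05 for Pfkl and -0.14 for Pfkm, whose sign turned. The other Pfkl probe sets gave 0.18 and -0.05 against WT Scl+. Whether the isoforms differed from each other was not tested.

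Pfkfb3 makes fructose 2,6-bisphosphate, the strongest activator of phosphofructokinase, and is induced by HIF. It was at 8.35 and 9.06 in WT Scl+, 8.65 and 9.08 in WT Scl-, and 7.68 and 7.9 in SclKO. SclKO lay below all 4 WT arrays, by -1.08 log units against WT Scl- (SE 0.28, 2.11-fold or 2.93-fold, limma adjusted p = 0.884) and by -0.91 against WT Scl+ (SE 0.28, limma adjusted p = 0.254). The difference from WT Scl+ was -0.56 without WT Scl+ replicate 2 and -1.27 without WT Scl+ replicate 1. A second Pfkfb3 probe set gave -0.99 and -0.54. Pfkfb4, a relative of Pfkfb3 and also a HIF target, was dim (4.88 to 5.33 over the 6 arrays) and differed by 0.22 and 0.05 in the SclKO comparisons (SE 0.17).

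**Figure D2:**
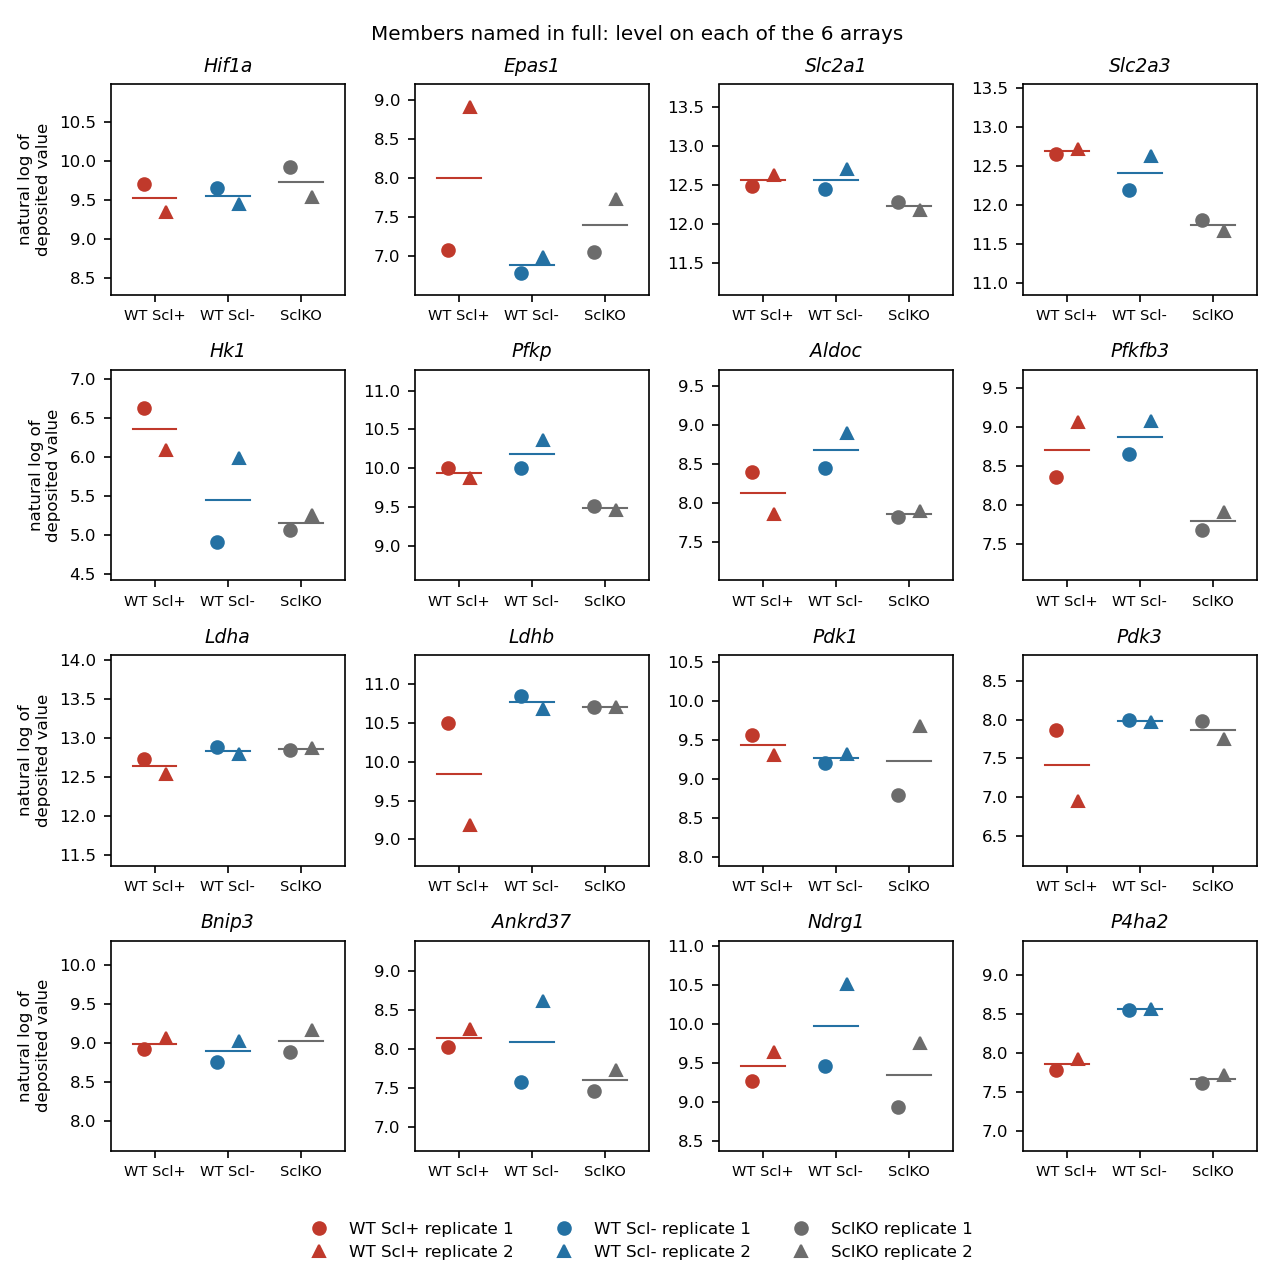
Level (natural log of the deposited value, each panel spanning 2.7 log units) of the 16 members named in full on each of the 6 arrays, circles for replicate 1, triangles for replicate 2 and bars for group means. SclKO lies under every WT array for Slc2a1, Slc2a3, Pfkp and Pfkfb3, WT Scl+ replicate 2 stands alone for Epas1 (8.92) and Ldhb (9.19), and for P4ha2 the WT Scl- arrays (8.56 and 8.57) stand above the rest.

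Below phosphofructokinase, the differences of Gapdh, Pgam1, Aldoa and Pgk1 were at most 0.19 log units in size on the probe sets used. Gapdh, the glyceraldehyde 3-phosphate dehydrogenase often used as a reference gene, is read here only by the array's own control probe sets. It lay between 13.51 and 13.56 on all 6 arrays, and its differences were between -0.04 and 0.03 log units (95% confidence interval -0.34 to 0.32 for SclKO against WT Scl-). Pgam1, a phosphoglycerate mutase, differed by -0.04, -0.05 and -0.09 in the 3 comparisons. Aldoa, the main aldolase, differed by -0.11, -0.03 and -0.14, and Pgk1, a phosphoglycerate kinase, by -0.19, 0.08 and -0.11. The standard errors of these 4 genes were 0.14 to 0.16. The other Pgk1 probe sets gave -0.21 and -0.11 between SclKO and WT Scl+, where the one used gave 0.08. The 5 Aldoa probe sets ranged from -0.04 to 0.06 there. Between SclKO and WT Scl-, the 5 Aldoa probe sets gave -0.18 to -0.07 and the 3 Pgk1 probe sets -0.24 to -0.11. Several of these enzymes have many processed pseudogenes, so their probe sets may read more than 1 transcript.

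Tpi1, triose phosphate isomerase, was at 12.51 and 12.44 in WT Scl+, 12.46 and 12.48 in WT Scl-, and 12.25 and 12.26 in SclKO. The SclKO arrays lay below the WT arrays by a small margin (-0.22 log units in each comparison, SE 0.14, limma adjusted p = 0.519 and 0.95). The other Tpi1 probe sets gave values of the same sign in both comparisons, with the full range from -0.22 to -0.01 against WT Scl+. Of the tissue-restricted isoforms, Aldoc, an aldolase of brain, was at 8.39 and 7.85 in WT Scl+, 8.44 and 8.9 in WT Scl-, and 7.81 and 7.89 in SclKO. WT Scl- was above both other groups. SclKO differed from it by -0.82 log units (SE 0.24, limma adjusted p = 0.884), whereas the WT Scl+ difference was -0.55 (SE 0.24, limma adjusted p = 0.573; -0.28 without WT Scl+ replicate 2 and -0.32 without WT Scl- replicate 2). A second, dimmer Aldoc probe set gave -0.52 and 0.04, and SclKO (3.78 and 4.84) overlapped both WT groups there. Eno2, the neuronal enolase, differed by -0.5 between SclKO and WT Scl- and by -0.41 between the WT gates (SE 0.33 each), with overlapping groups. Without WT Scl- replicate 2 these values were -0.07 and 0.02.

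At the end of the pathway, Ldha, which favours making lactate, was at 12.73 and 12.54 in WT Scl+, 12.88 and 12.79 in WT Scl-, and 12.84 and 12.87 in SclKO. WT Scl+ lay lowest, and SclKO and WT Scl- overlapped. WT Scl+ differed by -0.2 from WT Scl- (SE 0.15, limma adjusted p = 0.745) and SclKO from WT Scl- by 0.02 (95% confidence interval -0.34 to 0.38). SclKO differed from WT Scl+ by 0.22 (SE 0.15, limma adjusted p = 0.55), and by 0.13 without WT Scl+ replicate 2. Ldhb, which favours turning lactate back into pyruvate, was at 10.49 and 9.19 in WT Scl+, 10.84 and 10.68 in WT Scl-, and 10.7 and 10.7 in SclKO. The low value belonged to WT Scl+ replicate 2, and all 4 Ldhb probe sets had their lowest value there. The difference between the WT gates was -0.92 log units (SE 0.4, limma adjusted p = 0.564), -0.27 without that array and -1.57 without WT Scl+ replicate 1. For SclKO against WT Scl+ the values were 0.86 (SE 0.4, limma adjusted p = 0.406), 0.2 and 1.51.

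**Figure D3:**
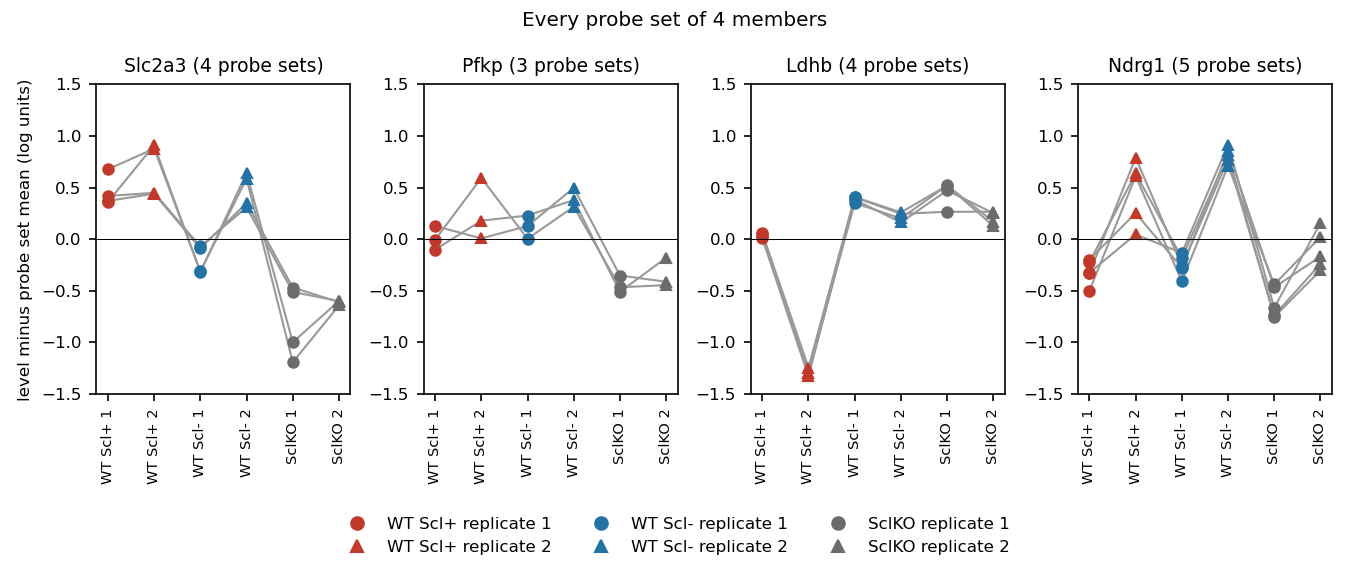
Level of every probe set of Slc2a3, Pfkp, Ldhb and Ndrg1 on the 6 arrays, minus that probe set's mean (log units); grey lines join the values of 1 probe set. The 4 Slc2a3 and 3 Pfkp probe sets are lowest on the SclKO arrays, the 4 Ldhb probe sets drop together on WT Scl+ replicate 2, and the 5 Ndrg1 probe sets are higher on replicate 2 than on replicate 1 in each group.

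Pyruvate dehydrogenase kinases keep pyruvate out of the mitochondria. Pdk1, a HIF-1 target, was at 9.56 and 9.3 in WT Scl+, 9.2 and 9.32 in WT Scl-, and 8.79 and 9.68 in SclKO. The SclKO arrays were the farthest apart and held both the lowest and the highest value. Its differences were 0.17, -0.2 and -0.03 log units (SE 0.3 each). Another probe set was at 9.46 and 9.47 in WT Scl+, against 8.69 and 8.98 in WT Scl- and 8.89 and 9.23 in SclKO, which puts WT Scl+ above both groups there, while the groups overlapped on the other Pdk1 probe sets. Pdk3, an X-linked isoform, was at 7.86 and 6.96 in WT Scl+, 7.99 and 7.97 in WT Scl-, and 7.98 and 7.75 in SclKO. WT Scl+ replicate 2 was again the low array, and the difference from WT Scl- of -0.57 (SE 0.3, limma adjusted p = 0.643) was -0.12 without it. SclKO differed from WT Scl+ by 0.45 (SE 0.3, limma adjusted p = 0.545) with overlapping arrays, and by 0 without WT Scl+ replicate 2. Slc16a3 (MCT4), the exporter of lactate, was at 10.62 and 10.7 in WT Scl+, 10.67 and 10.65 in WT Scl-, and 10.31 and 10.35 in SclKO. The 4 WT arrays lay close together and the SclKO arrays under them, at -0.33 log units (SE 0.14) in each comparison, with limma adjusted p = 0.365 against WT Scl+ and 0.884 against WT Scl-.

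Among the other hypoxia response genes, P4ha2, a collagen prolyl 4-hydroxylase, was at 7.79 and 7.93 in WT Scl+, 8.56 and 8.57 in WT Scl-, and 7.62 and 7.72 in SclKO. WT Scl- lay above both other groups, and its arrays differed little. SclKO differed from it by -0.9 log units (SE 0.14, 1.86-fold or 2.45-fold, limma adjusted p = 0.797). WT Scl+ differed from it by -0.7 (SE 0.14, 1.63-fold or 2.02-fold, limma adjusted p = 0.399). Leaving out any 1 array moved the difference between the WT gates only between -0.78 and -0.63. Its paralogue P4ha1 differed by 0.07 between the WT gates (SE 0.21) and by -0.25 between SclKO and WT Scl- (-0.02 without WT Scl- replicate 2), where a second probe set gave -0.31.

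Ndrg1, a stress-induced gene linked to differentiation, was at 9.27 and 9.64 in WT Scl+, 9.46 and 10.51 in WT Scl-, and 8.93 and 9.75 in SclKO. The groups overlapped in all comparisons (-0.53, -0.11 and -0.64 log units, SE 0.42). Leaving out WT Scl- replicate 2 made the first and last of these 0 and -0.11. Over its 5 probe sets SclKO differed by -0.73 to -0.11 from WT Scl+ and by -0.85 to -0.36 from WT Scl-. On 1 of them SclKO (6.99 and 7.44) lay below all 4 WT arrays (7.52 to 8.56). Ankrd37, a HIF-1 target, was at 8.03 and 8.26 in WT Scl+, 7.57 and 8.62 in WT Scl-, and 7.46 and 7.73 in SclKO. SclKO lay below WT Scl+ (-0.55, SE 0.34, limma adjusted p = 0.523) but overlapped WT Scl- (-0.5, and 0.02 without WT Scl- replicate 2). Bnip3, a mitophagy receptor and classical HIF-1 target, was at 8.92 and 9.06 in WT Scl+, 8.76 and 9.03 in WT Scl-, and 8.89 and 9.17 in SclKO. The groups overlapped throughout, and no difference exceeded 0.13 log units (SE 0.18). Ddit4, an inhibitor of mTORC1, differed by -0.27 and -0.33 in the SclKO comparisons (SE 0.18; -0.15 without WT Scl+ replicate 2 and -0.19 without WT Scl- replicate 2). Higd1a, a mitochondrial protein of hypoxia, differed by 0.01 and -0.13, and its other probe sets gave 0.41 to 0.45 and 0.1 to 0.25. Car9, a carbonic anhydrase that is among the most oxygen-dependent HIF-1 targets, was near or under the dim limit everywhere (4.03 to 4.81).

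Many of the hypoxia genes differed by replicate number. Replicate 2 lay above replicate 1 in all 3 groups for 6 of the 8 other hypoxia response genes (Bnip3, Ankrd37, Ddit4, Ndrg1, P4ha2 and Higd1a), and for Epas1, Egln1, Egln3 and Pfkfb3, which makes 10 of the 34 members against 14.1% of all genes tested. Of the 14 genes of glucose uptake and glycolysis, 0 did so. Ndrg1 was 0.37 log units higher on replicate 2 among the WT Scl+ arrays, 1.05 higher among WT Scl- and 0.82 higher among SclKO. The reverse order, replicate 2 below replicate 1 in all groups, held for 6 members (Hif1a, Pfkl, Pfkm, Aldoa, Pgk1 and Pdk3) against 23.4% of all genes. The pattern was noticed in the data and no test was made of it, and the labels do not say what a replicate number marks.

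**Figure D4:**
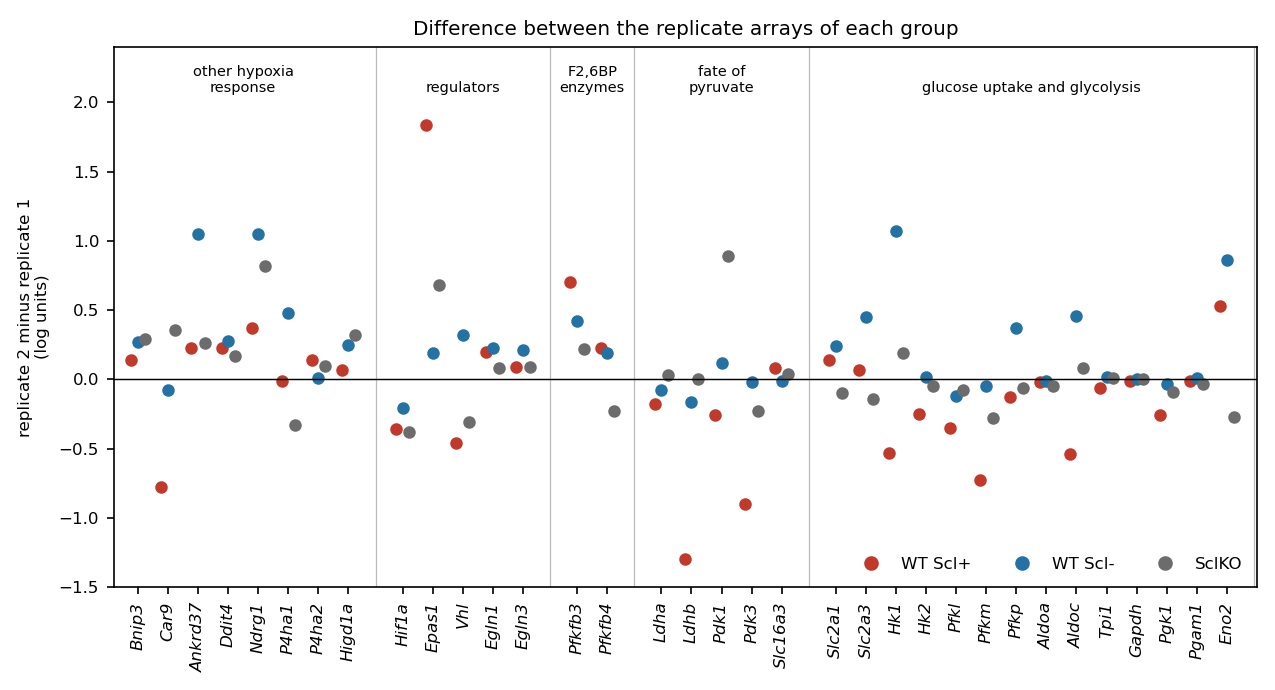
Level on replicate 2 minus level on replicate 1 (log units) within each group, for the 34 members arranged by role. All 3 points lie above 0 for Bnip3, Ankrd37, Ddit4, Ndrg1, P4ha2 and Higd1a, whereas no gene of glucose uptake and glycolysis has all 3 above 0.

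P4ha2, Aldoc and Slc16a3 lie on chromosome 11, where the median difference in SclKO was lower than on any other autosome. The 1124 tested genes of that chromosome had a median difference of -0.15 log units against WT Scl+ and of -0.15 against WT Scl-, while the medians of the other autosomes ran from 0.03 to 0.08 and from 0.01 to 0.06. Between the WT gates chromosome 11 had a median of -0.01. The part of this shift in the SclKO differences of the 3 genes, or of any pathway gene named below on this chromosome, was not tested. Pfkp, Pfkfb3 and Egln3 lie on chromosomes 13, 2 and 12.

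Other genes of the same pathways were taken from lists that do not hold the members. These lists, like the members, were chosen with earlier results of these data known, and they were read on the same arrays. Their shares are therefore no independent check of the differences seen among the members. Of 33 tested hypoxia response genes outside the set, limma called 0 in any comparison at an adjusted p under 0.05. At an unadjusted p under 0.05, 7 were lower in SclKO than in WT Scl-, 21.2% against 2.38% of all genes, and 0 were higher. The 7 were Kdm3a, Bhlhe40, Plod2, Pgm1, Ak4, Ppp1r3c and Narf. The difference was negative for 24 of the 33 and for 5940 of the 12923 genes tested, with medians of -0.13 and 0.02 log units. Against WT Scl+, 4 were lower (Cited2, Stc2, Ak4 and Narf; 12.1% against 6.80% of all genes) and 1, Vldlr, was higher (3.03% against 7.16%). Ppp1r3c, which promotes glycogen storage, differed by -0.78 (SE 0.18, limma adjusted p = 0.832) between SclKO and WT Scl-, Bhlhe40, a hypoxia-induced repressor, by -0.69 (SE 0.23) and Narf by -0.62 (SE 0.17). Between the WT gates, Cited2 was higher at that threshold (3.03% against 5.40%) and Ppp1r3c, Vldlr and Rora lower (9.09% against 3.74%). Of 18 further glycolysis genes, limma called 0. At an unadjusted p under 0.05, only Ldhc was lower in SclKO than in WT Scl- (5.56% against 2.38% of all genes), and 0 were higher (against 3.14%). Against WT Scl+, Ldhc was lower (5.56% against 6.80%) and Pdp2 higher (5.56% against 7.16%). The medians of the 18 genes in these comparisons were -0.09 and -0.03 log units, against 0.02 and 0.04 over all genes tested. The lists were not compared by a test.

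Promoters of the members were searched for the core of the hypoxia response element, the letters HIF binds, in the 250 bases before each RefSeq start in GRCm38.p6. The motifs were ACGTG and GCGTG on either strand; ACGTG overlaps its own reverse complement in the run CACGTG. RefSeq gave none for Epas1, Slc2a3 and Ndrg1. For the other 33 of the 36 genes, among them Gpi1 and Eno1 without a probe set, it gave 45 promoters. ACGTG was in 48.9% of them, against 16.6% of all 32851 promoters and 21.1% of the 13172 promoters of genes tested here. Either motif was in 82.2%, against 38.6% and 54.5%. The set was chosen to hold hypoxia response genes, so a high share of a motif that HIF binds was likely from the start. The median GC content was 62.8% for the members, 52.4% for all promoters and 59.6% for those of genes tested, and alternative starts of 1 gene share sequence. The sequences below belong to Egln3, Pfkp and Pfkfb3, to P4ha2 and, for contrast, to Ldha. Egln3, Pfkp and Pfkfb3 are the members with a RefSeq promoter that lay lower in SclKO at an unadjusted p under 0.05 in both comparisons. Ldha differed by 0.02 log units between SclKO and WT Scl- and by 0.22 between SclKO and WT Scl+. P4ha2 and Ldha were chosen with their values known. Each sequence runs 5′ to 3′ along the gene's strand up to its start, with the motifs in capitals.
Egln3 (GRCm38.p6 chr12:54203875-54204124, minus strand): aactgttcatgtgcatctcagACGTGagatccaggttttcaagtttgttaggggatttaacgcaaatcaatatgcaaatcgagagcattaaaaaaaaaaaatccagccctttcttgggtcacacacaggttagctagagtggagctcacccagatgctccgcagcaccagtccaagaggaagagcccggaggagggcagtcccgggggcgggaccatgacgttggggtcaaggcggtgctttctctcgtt
Pfkp (GRCm38.p6 chr13:6648772-6649021, minus strand): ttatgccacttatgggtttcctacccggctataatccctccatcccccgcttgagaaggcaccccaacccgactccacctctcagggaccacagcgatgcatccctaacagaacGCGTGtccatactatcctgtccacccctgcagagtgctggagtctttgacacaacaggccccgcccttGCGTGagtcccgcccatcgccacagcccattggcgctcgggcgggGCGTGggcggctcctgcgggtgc
Pfkfb3 promoter 1 (GRCm38.p6 chr2:11502091-11502340, minus strand): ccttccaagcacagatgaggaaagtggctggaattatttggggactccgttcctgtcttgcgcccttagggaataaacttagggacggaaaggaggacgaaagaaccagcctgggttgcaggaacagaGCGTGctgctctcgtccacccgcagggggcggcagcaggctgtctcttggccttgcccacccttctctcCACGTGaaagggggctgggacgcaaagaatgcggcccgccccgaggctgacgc
Pfkfb3 promoter 2 (GRCm38.p6 chr2:11553930-11554179, minus strand): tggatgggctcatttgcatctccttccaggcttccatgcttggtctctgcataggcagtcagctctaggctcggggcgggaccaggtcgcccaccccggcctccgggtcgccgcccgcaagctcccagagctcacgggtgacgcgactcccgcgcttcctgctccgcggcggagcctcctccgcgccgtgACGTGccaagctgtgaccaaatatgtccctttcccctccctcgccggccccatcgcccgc
P4ha2 (GRCm38.p6 chr11:54100674-54100923, plus strand): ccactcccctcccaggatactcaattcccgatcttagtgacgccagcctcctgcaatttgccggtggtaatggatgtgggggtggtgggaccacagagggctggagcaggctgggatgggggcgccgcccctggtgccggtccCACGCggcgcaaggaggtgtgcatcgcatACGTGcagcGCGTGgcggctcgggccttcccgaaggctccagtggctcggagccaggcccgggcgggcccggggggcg
Ldha promoter 1 (GRCm38.p6 chr7:46845554-46845803, plus strand): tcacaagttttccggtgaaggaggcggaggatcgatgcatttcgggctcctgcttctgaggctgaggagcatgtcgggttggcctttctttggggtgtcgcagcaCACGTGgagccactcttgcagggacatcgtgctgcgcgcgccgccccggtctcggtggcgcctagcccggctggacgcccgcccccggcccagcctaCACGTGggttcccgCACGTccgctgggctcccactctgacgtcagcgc
The promoter of Ldha shown held 5 matches, and that of Egln3, lower in SclKO, held 1. Ldha was at 12.84 and 12.87 in SclKO, 12.88 and 12.79 in WT Scl-, and 12.73 and 12.54 in WT Scl+. Pfkfb3 held 3 and 1 in its 2 promoters, and Pfkp and P4ha2 held 3 each. A second Ldha promoter held 1. Matches on both strands are counted, so each CACGTG is counted once per strand. A match is a run of letters and not a site shown to be bound. Whether matches go with the levels of the genes was not tested.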

How the data were processed

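RNA of 6 samples was measured on Affymetrix arrays. The submitters' processing notes name limma, RMA and affy, with no versions in the sources used here. RMA corrects background, normalises quantiles and summarises probe sets. The authors deposited an expression score of unstated unit per probe set with values from 3.256 to 2822995, whose natural log (1.18 to 14.85) spans what RMA gives in log2. That log was analysed; the number of unused sample columns was 0. Of 45101 probe sets, 34958 had 1 symbol, 932 several and 9211 none; 34754 symbols were updated through Entrez identifiers. Control probe sets (64) were left out, except those of Gapdh, which had no other. The probe set with the highest mean stood for each gene, and genes above their array's 40th percentile on at least 2 arrays were tested. Group means were estimated over the 6 arrays together by limma 3.58.1 under R 4.3.3 (residual degrees of freedom 3, prior 3.15), with two-sided tests and Benjamini-Hochberg adjustment over 12923 genes. An exact permutation test of 2 against 2 arrays cannot go below p = 0.333, and was not used. The fit was tested on simulated data. The number of arrays limits the precision, and read depth does not apply. Named in full were Hif1a, Epas1, Slc2a1, Ldha, Pdk1, Bnip3, and the 6 members with the largest difference in each comparison, which makes 16; after their values were seen, those of Egln3, Tpi1 and Slc16a3 on every array were added; pathway genes were named by size or by passing the unadjusted threshold. The members and lists were chosen with earlier results of these data known. Alternatives were the replicate block, other filters, probe set choices and normalisations, array weights, an intensity trend, only 2 groups, and leaving out each array; counts at an unadjusted p with each array left out were added after seeing the data. Promoter sequences are RefSeq's, in GRCm38.p6; other coordinates were not used.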

Additional observations from a re-analysis of the deposited data

How the results depend on the processing

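Members called numbered 0 under every alternative that kept all 6 arrays or only the 2 groups compared. With 1 array left out they ranged from 0 to 1 for WT Scl+ against WT Scl- and from 0 to 2 for SclKO against WT Scl+, the highest values both without WT Scl+ replicate 1, and stayed at 0 for SclKO against WT Scl-. The median difference of the members kept its sign in all alternatives. With 1 array left out it ranged from -0.2 to -0.03 between the WT gates, from -0.16 to -0.04 for SclKO against WT Scl+ and from -0.28 to -0.12 for SclKO against WT Scl-. Where 1 array was left in a group, that array was assumed to vary like the other groups. Of 256 alternative values for the 16 members named in full, 13, 8 and 10 had the other sign in the 3 comparisons.

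Counts over all genes moved more. For SclKO against WT Scl+, 1 gene (Cdkn1c) was called, against 9 with the 60th percentile filter, 18 with an intensity trend, 49 with only the 2 groups, 4 with the mean of all probe sets, 2 with every probe set tested on its own, and 0 to 699 with 1 array left out (699 without WT Scl+ replicate 1, 49 without either WT Scl- array, 0 without any of the others). For SclKO against WT Scl- the counts were 1 as reported, 2 with the 60th percentile filter, with array weights and with every probe set, 3 with the trend, 4 with the mean of probe sets, and 0 with only the 2 groups or with any array left out. For WT Scl+ against WT Scl- they were 0 and, with 1 array left out, 0 to 203, the highest without WT Scl+ replicate 1. With the replicate number as a block (replicate block), 3 genes were called for SclKO against WT Scl+ and 1 for SclKO against WT Scl-, and no member. Same-numbered arrays deviated together (r = 0.25 across genes for each pair of groups), but with 2 numbers and no label this does not settle whether they were paired. The causes of these changes were not tested.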

Other observations

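Genes that carry pyruvate into the mitochondria and through the citric acid cycle were followed in the same way. Of 21 tested, limma called 0, and 0 passed an unadjusted p under 0.05 in any comparison, against 2.38% to 7.16% of all genes in each direction. The median was -0.11 log units between WT Scl+ and WT Scl- (-0.02 over all genes tested), 0.03 between SclKO and WT Scl+ (0.04) and -0.06 between SclKO and WT Scl- (0.02). In that order, the difference was negative for 15, 8 and 17 of the 21, and for 6960, 5753 and 5940 of the 12923 genes tested. Mpc1, a subunit of the mitochondrial pyruvate carrier, had the largest difference, 0.82 log units between SclKO and WT Scl+ (SE 0.38, limma adjusted p = 0.402), and differed by -0.64 between the WT gates (limma adjusted p = 0.692). Replicate 2 lay below replicate 1 in all 3 groups for 8 of the 21 (Dlat, Idh3a, Idh3g, Sucla2, Suclg1, Sdha, Fh1 and Mdh2), against 23.4% of all genes tested, and above it for 1, Sdhd. Of the 33 hypoxia response genes outside the set, 10 had replicate 2 above replicate 1 in all groups (Egln2, Vegfa, Adm, Stc1, Stc2, Plod1, Ero1a, Gbe1, Hmox1 and Mif), against 14.1% of all genes, and 2 had it below (Ak4 and Tfrc).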
